A study of Mus musculus with 8 samples.

Results

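The comparison was between EL4 cells that carried GFP with HA-tagged GATA3 (GFP + GATA3) and control cells that carried GFP with the red fluorescent protein Plum (GFP + Plum), a design that asks how expression differs when GATA3 is added without T-bet. Its members were the 4 libraries with these labels, 2 per line, of 8 in the series. EL4 is a mouse T lymphoma line that also expresses its own Gata3. Cells of both lines had been stimulated with the phorbol ester PMA at 50 ng/ml and ionomycin at 1 µM for 4 h, so that no unstimulated cells were compared. The other 4 libraries came from T-bet + Plum and T-bet + GATA3 cells, which carried FLAG-T-bet and were stimulated in the same way.
Each condition was 1 retrovirally transduced line, and its 2 libraries were harvests of that line on different days. An effect of GATA3 and any other difference between the lines therefore cannot be told apart.

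GATA3 is a zinc finger transcription factor that binds GATA motifs. It is needed for early T cell development and for CD4+ T cells, and it is the factor that directs naive T helper cells to the TH2 fate, in which they make IL-4, IL-5 and IL-13. T-bet, encoded by Tbx21, is its counterpart in TH1 cells, which make IFNγ and chemokines such as CCL3 and CCL4. PMA and ionomycin bypass the T cell receptor and switch on cytokine genes through protein kinase C and calcium.

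The authors deposited kallisto estimated counts per transcript, which were summed per gene. The total was 15385166 and 16003519 estimated counts for the GFP + Plum libraries and 10150310 and 15508697 for GFP + GATA3. Of 54146 genes, 14791 passed the filter on low counts and were tested with edgeR in 1 fit of the 8 libraries. Levels are CPM, counts scaled to a common library size, here with TMM factors, and differences are log2 fold changes (log2 FC) of GFP + GATA3 over GFP + Plum with their standard errors (SE). Replicates of GFP + Plum differed more than those of GFP + GATA3, with a median difference per gene of 0.295 against 0.195 on the log2 scale. With 2 libraries a side, an exact permutation test of a single gene cannot give a p below 0.333. The defining T cell genes were present, with Cd3e between 94.1 and 121 CPM and Trbc2 between 845 and 1141 CPM. Cd247 and Cd8a did not pass the filter. Of 9 erythroid markers 7 had 0 counts in all 4 libraries, as had 9 of 13 mast cell and basophil markers, and Csf1r, Adgre1 and Spi1 of the myeloid list were at or near 0. Of the 13 myeloid markers 4 passed the filter, namely Cd68, Lyz2, Itgam and Itgax. Cd68 was at 3.40 and 1.52 CPM in GFP + Plum and 2.78 and 2.47 CPM in GFP + GATA3.

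The Gata3 gene itself (ENSMUSG00000015619.10, chromosome 2 of GRCm38, 9857078 to 9890034) checked the labels. It stood at 39.8 and 53.3 CPM in GFP + Plum and at 283 and 326 CPM in GFP + GATA3. Both libraries with HA-GATA3 lay far above both controls, and the log2 FC was 2.71 (SE 0.21, edgeR FDR = 0.0110). In TPM, which divides by transcript length, the means were 26.2 and 281. The short protein-coding transcript ENSMUST00000130615.1, of 674 bases, had 401.5 and 592.8 estimated counts in GFP + GATA3 and 0 in each control. Most counts lay on the main transcript, ENSMUST00000102976.3, with 608 and 807 in GFP + Plum and 2381.5 and 4209.7 in GFP + GATA3. Counts of the introduced and the resident gene were not separated. Tbx21 was at 3.59 and 1.78 CPM in GFP + Plum and at 2.01 and 2.22 CPM in GFP + GATA3, so that its levels overlapped between the lines and lay far below the 129 to 160 CPM of the lines with FLAG-T-bet.

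A call needed an edgeR FDR no higher than 0.05 and a log2 FC above 1.5 in size, and 3 genes met it, which is 0.0203% of those tested. All 3 were higher in GFP + GATA3, namely Gata3, Mrgprx1 and Ly6a. No gene was called lower, while 227 genes had an unadjusted p below 0.05 and a lower level (1.53%) and 320 had one and a higher level (2.16%). DESeq2, run on the same counts, called 29 genes (0.196%), 20 higher and 9 lower, and these included the 3 genes of edgeR. A fit of the 4 libraries alone, in which the spread is estimated from 2 lines, called 0 genes, with 511 at an unadjusted p below 0.05. Without GFP + GATA3 replicate 2 the 8-library fit also called 0 genes, with 342 at an unadjusted p below 0.05 and an FDR of 0.0695 for Gata3 and Mrgprx1, and without GFP + GATA3 replicate 1 it called 5. Without the filter on low counts 138 genes were called. Counted without any test, both GFP + GATA3 libraries lay above both GFP + Plum libraries in 2113 genes (14.3%) and below them in 1944 genes (13.1%). These last shares are the background for each count of separated genes below. Levels went the same way in both same-numbered pairs in 3922 genes (26.5%) that were higher and 3806 (25.7%) that were lower, although the numbers do not tie libraries of different lines together.

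**Figure D1:**
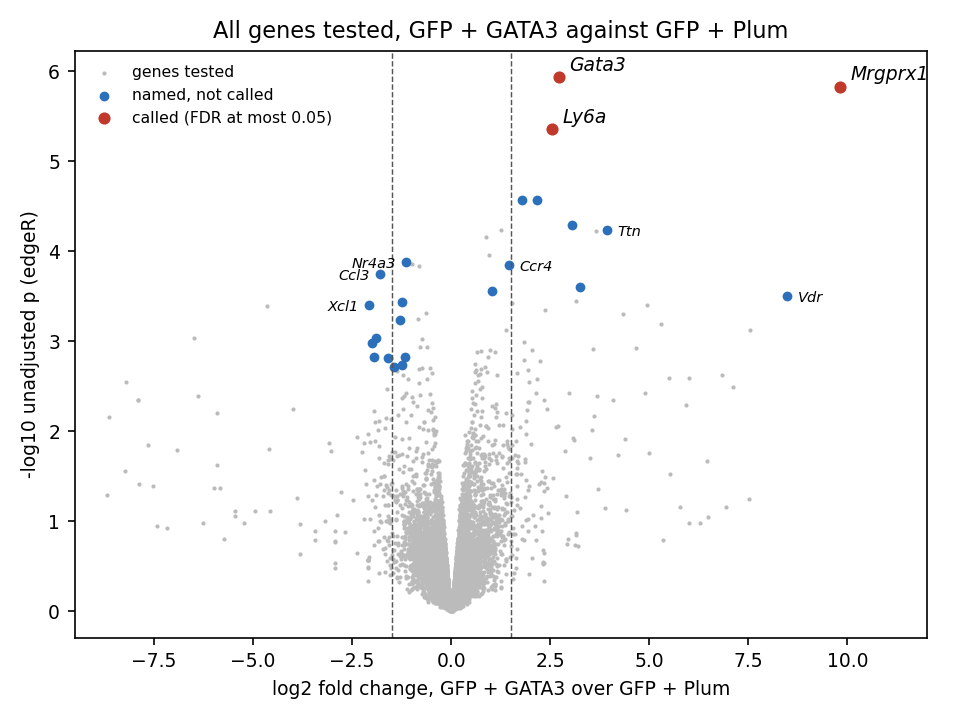
Each of the 14791 genes tested is a point, with the log2 fold change of GFP + GATA3 over GFP + Plum on the horizontal axis and the negative log10 of the unadjusted edgeR p on the vertical axis, and dashed lines mark a log2 fold change of 1.5 in size. The 3 called genes (red) are all on the right, and 20 other leading genes (blue) lie above most of the grey points but were not called. Fitted values of genes with 0 counts in 1 line, such as Mrgprx1 and Vdr, depend on the prior count.

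Mrgprx1 (ENSMUSG00000070552.2, chromosome 7, 48020971 to 48027597) encodes a G protein-coupled receptor of the Mas-related family, known from sensory neurons that convey itch. No read was assigned to it in either control (0 counts each), against 73 and 159 counts, or 6.99 and 10.1 CPM, in GFP + GATA3. Against a floor of 3 counts per library it was at least 44.8-fold higher (edgeR FDR = 0.0110). The gene was thus read in both harvests of 1 line and in neither of the other. Of its 31-base words 77.8% occurred in no other gene of the annotation, so a part of its counts could be shared with related sequences. In bulk RNA, fewer cells that express a gene and less RNA per cell cannot be told apart. Of 21 Mrgpr genes listed, 3 were tested. Mrgpra1 was lower without overlap, at 3.40 and 1.71 CPM in GFP + Plum and 1.24 and 0.507 CPM in GFP + GATA3, but was not called (edgeR FDR = 1). The levels of Mrgpre overlapped.

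Ly6a (ENSMUSG00000075602.10, chromosome 15, 74994877 to 74998031) encodes Sca-1, a GPI-anchored surface protein of stem cells and activated T cells. Its level was 1.86 and 1.78 CPM in GFP + Plum and 10.1 and 11.2 CPM in GFP + GATA3. The replicates of each line lay close together and the lines did not overlap, with a log2 FC of 2.55 (SE 0.24, edgeR FDR = 0.0218). Only 68.1% of its 31-base words were its own, and it shared most with Ly6c1. Without 1 library the FDR of Ly6a lay above 0.05 for each of the 4 libraries of these lines, at 0.194 without GFP + Plum replicate 2, 0.159 without GFP + GATA3 replicate 2, 0.0670 without GFP + Plum replicate 1 and 0.0540 without GFP + GATA3 replicate 1. Of the Ly6 and Thy1 surface proteins 7 of 21 were tested, and 4 were higher without overlap and 0 lower, against 14.3% and 13.1% of all genes. The median log2 FC was 0.35 against -0.0044 over all genes. The 4 include Ly6a and Ly6g6c, which were named for their values in this same contrast, so the count is not separate evidence. Ly6c1, another of the 4, was near the floor, at 0.124 and 0 CPM in GFP + Plum and 0.479 and 0.697 CPM in GFP + GATA3. It passed the filter on low counts through libraries with GATA3, with 5 and 11 counts in GFP + GATA3 and 10 and 8 in T-bet + GATA3. In T-bet + Plum it had 2 and 5 counts. The filter thus favoured counting Ly6c1 as higher. Of its 31-base words 53.2% were its own. Ly6e, which many cell types express, was at 168 and 217 CPM in GFP + Plum and 246 and 243 CPM in GFP + GATA3.
Ly6g6c, a family member outside the Ly6a cluster, was at 0.990 and 0.761 CPM in GFP + Plum and 6.41 and 10.3 CPM in GFP + GATA3. Its log2 FC was 3.25 (SE 0.52) and it was not called by edgeR (FDR = 0.215).

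The 12 protein-coding genes with the smallest p were then followed in each direction, among those with a log2 FC of at least 1 in size, a mean of at least 1 CPM in the higher line and no overlap. This choice used the contrast itself, so the values of these genes describe them and give no further test. It was met by 130 genes that were higher and 64 that were lower. After Gata3, Mrgprx1 and Ly6a, the higher genes included Ccdc162, Rbfox2, Adora3, Ttn, Ccr4, Ly6g6c, Gzma and Vdr.

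**Figure D2:**
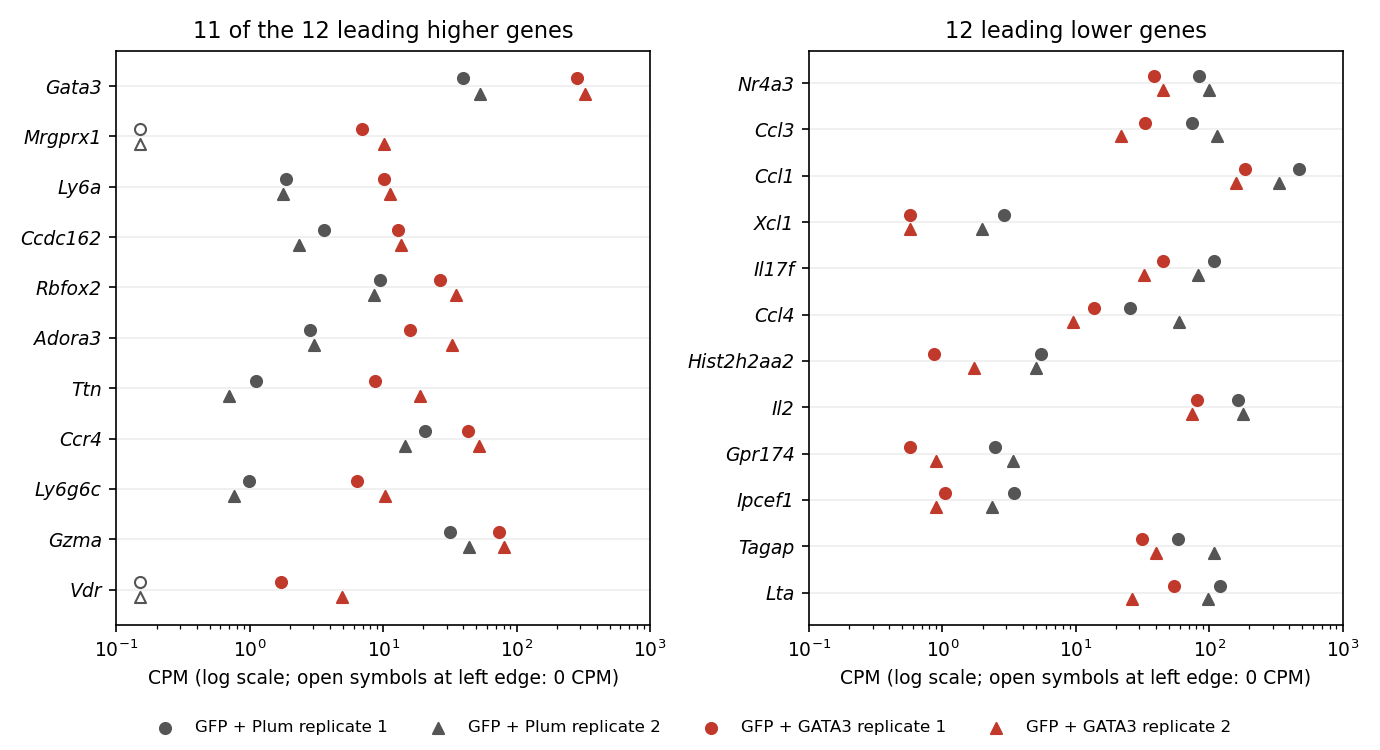
Levels in CPM on a log axis are shown for 11 of the 12 leading higher genes (left) and the 12 leading lower genes (right), with GFP + Plum in grey, GFP + GATA3 in red, replicate 1 as circles and replicate 2 as triangles. Red and grey symbols do not overlap in any row, which the choice of genes fixed, and open symbols at the left edge are the 0 counts of Mrgprx1 and Vdr in GFP + Plum.

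Ccr4 encodes the receptor for CCL17 and CCL22 that marks TH2 and skin-homing T cells. Its level was 20.5 and 14.5 CPM in GFP + Plum and 43.5 and 52.1 CPM in GFP + GATA3, with a log2 FC of 1.45 (SE 0.22, edgeR FDR = 0.144). Adora3, the A3 adenosine receptor, was at 2.85 and 3.04 CPM in GFP + Plum and 15.98 and 32.9 CPM in GFP + GATA3. The GFP + GATA3 libraries of Adora3 differed by more than the controls did, and its log2 FC of 3.05 had an SE of 0.39 (edgeR FDR = 0.0976). It overlaps Tmigd3 and 76.1% of its 31-base words were its own. Gzma, the granule protease granzyme A, was among the more abundant of these genes, at 31.7 and 44.0 CPM in GFP + Plum and 73.6 and 80.8 CPM in GFP + GATA3.
Vdr, the nuclear receptor for vitamin D, had 18 and 78 counts in GFP + GATA3 and 0 in each control, at least 17.5-fold higher (edgeR FDR = 0.239). Rbfox2, a splicing factor, was at 9.41 and 8.50 CPM in GFP + Plum and 26.8 and 35.1 CPM in GFP + GATA3. Both genes were thus separated between the lines and neither was called. Ttn, the giant muscle protein titin, was at 1.11 and 0.698 CPM in GFP + Plum and 8.71 and 18.8 CPM in GFP + GATA3. Ccdc162, whose function is not well known, was at 3.59 and 2.35 CPM in GFP + Plum and 12.9 and 13.7 CPM in GFP + GATA3.

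Among the 12 leading lower genes were 4 chemokines, 3 cytokines and Nr4a3. Nr4a3, an orphan nuclear receptor induced by calcium and antigen receptor signals, was at 84.0 and 99.3 CPM in GFP + Plum and 38.7 and 44.9 CPM in GFP + GATA3, with a log2 FC of -1.13 (SE 0.17, edgeR FDR = 0.144). Ccl3, an inflammatory chemokine that binds CCR1, was at 74.9 and 115 CPM in GFP + Plum and 33.0 and 21.9 CPM in GFP + GATA3 (log2 FC -1.80, SE 0.28, edgeR FDR = 0.165). Its neighbour Ccl4, which encodes a related chemokine, was at 25.5 and 59.7 CPM in GFP + Plum and 13.6 and 9.57 CPM in GFP + GATA3. The lines did not overlap in either gene, but the lower Ccl4 control was nearer to the GFP + GATA3 libraries than to the other control.
Ccl1, the ligand of CCR8, was the most abundant of the 12, at 473 and 334 CPM in GFP + Plum and 185 and 158 CPM in GFP + GATA3 (log2 FC -1.24, SE 0.21, edgeR FDR = 0.239). Xcl1, lymphotactin, was low in both lines, at 2.91 and 1.97 CPM in GFP + Plum and 0.574 and 0.571 CPM in GFP + GATA3.
Il2, the T cell growth factor, was at 165 and 178 CPM in GFP + Plum and 80.5 and 74.0 CPM in GFP + GATA3 (log2 FC -1.15, SE 0.25, edgeR FDR = 0.447). Lta, lymphotoxin alpha, was at 119 and 98.3 CPM in GFP + Plum and 54.7 and 26.5 CPM in GFP + GATA3. The replicates of Il2 lay close together in both lines, and those of Lta did not in GFP + GATA3. Il17f, a TH17 cytokine, was at 108 and 82.7 CPM in GFP + Plum and 45.3 and 32.7 CPM in GFP + GATA3. Hist2h2aa2, Gpr174, Ipcef1 and Tagap made up the 12, with log2 FCs between -1.99 and -1.23. None of the 31-base words of Hist2h2aa2 was unique to it and 36.6% of those of Tagap were, so that the split of reads between these genes and their copies is uncertain.

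Promoters of the leading genes were read for the letters of the GATA motif, AGATAA or else TGATAA, and AGATAG or else TGATAG, on both strands, in the 250 bases before each RefSeq start on GRCm38.p6. Such letters stood in 26.5% of 32851 windows. They were found in 3 of 8 higher genes with an entry and in 3 of 10 lower genes with an entry, which is near the 29.7% of all genes. The 3 higher genes and 1 of the lower are shown, 5′ to 3′ on the strand of the gene and with the matching letters in capitals, since they include a called gene. The Mrgprx1 window is chr7:48027598-48027847 (minus strand), that of Adora3 chr3:105904171-105904420 (plus), that of Ly6g6c chr17:35067075-35067324 (plus) and that of Ccl1 chr11:82179813-82180062 (minus).
Mrgprx1: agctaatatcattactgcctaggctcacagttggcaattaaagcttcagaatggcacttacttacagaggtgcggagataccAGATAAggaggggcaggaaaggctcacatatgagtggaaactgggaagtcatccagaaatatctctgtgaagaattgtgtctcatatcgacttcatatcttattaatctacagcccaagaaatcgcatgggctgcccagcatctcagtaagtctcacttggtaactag
Adora3: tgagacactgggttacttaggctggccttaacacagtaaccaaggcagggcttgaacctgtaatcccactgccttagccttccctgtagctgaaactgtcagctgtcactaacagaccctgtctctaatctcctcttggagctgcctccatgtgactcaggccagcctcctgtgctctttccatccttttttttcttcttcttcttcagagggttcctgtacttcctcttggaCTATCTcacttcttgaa
Ly6g6c: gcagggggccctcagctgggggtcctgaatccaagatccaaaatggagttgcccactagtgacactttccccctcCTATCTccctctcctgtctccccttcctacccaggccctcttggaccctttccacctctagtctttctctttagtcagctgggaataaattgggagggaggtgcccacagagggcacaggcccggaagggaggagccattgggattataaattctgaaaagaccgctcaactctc
Ccl1: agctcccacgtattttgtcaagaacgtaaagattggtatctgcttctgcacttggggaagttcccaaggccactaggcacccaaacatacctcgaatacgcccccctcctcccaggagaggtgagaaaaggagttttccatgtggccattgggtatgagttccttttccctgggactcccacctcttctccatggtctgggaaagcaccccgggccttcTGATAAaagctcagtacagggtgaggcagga
The letters began 168 bases before the start in Mrgprx1, 17 in Adora3, 175 in Ly6g6c and 31 in Ccl1. A match describes the letters in this window and is not evidence of binding. The window of Gata3 itself held no match.

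Of 24 genes listed as TH2 cytokines and effectors, 13 were tested. In 6 of them both GFP + GATA3 libraries lay above both controls and in 0 below, against 14.3% and 13.1% of all genes, and the median log2 FC was 0.70. None was called. Under scaling by library size only, the number that were higher without overlap was 4. With 1 of the 4 libraries left out between 6 and 9 were higher, where 27.7% to 36.9% of all genes were. Between 0 and 3 were lower, where 26.3% to 35.6% of all genes were. Of the TH2 signature cytokines, Il4 and Il13 were at or near the floor in most libraries. Il4 had 0 counts in 3 of the 4 libraries and 12 counts (0.761 CPM) in GFP + GATA3 replicate 2. Il13 was not tested, with 2 counts in that library alone. Il4 passed the filter through the T-bet lines, with 3 and 12 counts in T-bet + Plum and 25 and 23 in T-bet + GATA3. Its log2 FC of 5.51 (SE 2.04) is part of the median of the list. Il5, the eosinophil growth factor, was at 1.61 and 0 CPM in GFP + Plum and 4.02 and 16.8 CPM in GFP + GATA3, a log2 FC of 3.70 with an SE of 1.55 (edgeR FDR = 1). Levels of Il5 were higher in both GFP + GATA3 libraries and differed widely within each line.
Hpgds, a prostaglandin D2 synthase of TH2 cells, was at 204 and 86.1 CPM in GFP + Plum and 261 and 210 CPM in GFP + GATA3. Pdcd1lg2, the PD-1 ligand PD-L2, was at 19.7 and 4.88 CPM in GFP + Plum and 25.3 and 27.6 CPM in GFP + GATA3. In Hpgds, Pdcd1lg2 and Cyp11a1 the GFP + Plum replicates lay further apart than GFP + Plum replicate 1 and GFP + GATA3. The median log2 difference of this list was 0.36 between the libraries numbered 1 and 1.28 between those numbered 2, and it was 1.45 without GFP + Plum replicate 1 and 0.23 without GFP + Plum replicate 2. With a GFP + GATA3 library left out it was 0.71 (replicate 1) and 0.21 (replicate 2).

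Transcription factors of TH2 cells were split. Of 16 tested, 3 were higher and 4 lower without overlap, and the median log2 FC was -0.01. Nfil3, a basic leucine zipper factor that regulates cytokine genes, was at 32.4 and 23.0 CPM in GFP + Plum and 47.5 and 48.2 CPM in GFP + GATA3. Irf4, which TH2 differentiation needs, was at 275 and 283 CPM in GFP + Plum and 183 and 226 CPM in GFP + GATA3. Stat5a was at 65.4 and 70.0 CPM in GFP + Plum and 47.1 and 54.6 CPM in GFP + GATA3. None of these was called by edgeR (FDR between 0.702 and 0.897).
Of 20 tested genes for GATA factors and their partners 6 were higher and 1 was lower without overlap, against 14.3% and 13.1% of all genes. The 6 include Gata3 itself, the introduced gene, whose higher level was fixed by the design. The median log2 FC of the list was 0.04. Without GFP + Plum replicate 1, 9 were higher and 8 lower, against 35.7% and 35.3% of all genes. Without GFP + Plum replicate 2, 13 were higher and 2 lower, against 36.9% and 35.6%. Ets1, an ETS family factor of T cells, was at 72.9 and 68.7 CPM in GFP + Plum and 127 and 180 CPM in GFP + GATA3 (log2 FC 1.12, SE 0.23, edgeR FDR = 0.418). Lmo2, an adaptor that joins GATA factors to other DNA-binding proteins, was at 2.78 and 1.33 CPM in GFP + Plum and 4.98 and 4.18 CPM in GFP + GATA3. Gata1 and Gata2 had 0 counts in all 4 libraries.

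Of 30 TH1 genes 26 were tested, and 10 were lower and 4 higher without overlap, with a median log2 FC of -0.31. The 4 include Nkg7, near the floor with 0 and 1 counts in GFP + Plum and 1 and 4 counts in GFP + GATA3. It passed the filter through the T-bet lines, where it had 178 to 815 counts. The 10 lower genes were Il12rb1, Il18r1, Il18rap, Ccl3, Ccl4, Ccl5, Furin, Ctsw, Lta and Tnf. The count was 9 under scaling by library size only and between 11 and 17 with 1 of the 4 libraries left out, where 26.3% to 35.6% of all genes were lower. Without GFP + Plum replicate 1, 12 were lower and 9 higher, against 35.3% and 35.7% of all genes, and the median was -0.07. Tnf was at 329 and 314 CPM in GFP + Plum and 190 and 176 CPM in GFP + GATA3, a log2 FC of -0.81 (SE 0.12, edgeR FDR = 0.144). Its replicates were close in each line and far apart between the lines. Ifng, the defining TH1 cytokine, was near the floor in all 4 libraries, with 3 and 11 counts in GFP + Plum and 6 and 8 counts in GFP + GATA3. A lower level of Ifng was not detectable at this depth. Il18r1, a chain of the IL-18 receptor, was at 2.97 and 2.16 CPM in GFP + Plum and 0.766 and 0.507 CPM in GFP + GATA3, and DESeq2 called it lower (adjusted p = 0.0365) whereas edgeR did not (FDR = 0.949).

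The chemokines and the cytokines of stimulated T cells were counted in the same way. Of 11 chemokines tested of 27, Ccl1, Ccl3, Ccl4, Ccl5 and Xcl1 were lower without overlap and Cxcl10 was higher, with a median log2 FC of -1.11. The summed level of the list was 703 and 570.2 CPM in GFP + Plum and 299.8 and 225 CPM in GFP + GATA3. Most of this sum was Ccl1 alone, at 473 and 334 CPM in GFP + Plum and 185 and 158 CPM in GFP + GATA3. By DESeq2 4 of the 11 had an adjusted p of at most 0.05 and a lower level, against 0.162% of all genes. By edgeR 0 had. The 4 were Ccl1, Ccl3, Ccl4 and Xcl1, leading lower genes chosen by their p in this same contrast. Their count is therefore not separate evidence. Of 23 activation cytokines and TNF ligands tested, 9 were lower and 4 higher without overlap, with a median of -0.33. Those lower were Il2, Il3, Tnf, Lta, Ltb, Il17f, Tnfsf8, Tnfsf11 and Fasl, and those higher were Csf1, Il10, Il22 and Spp1. Il3, a growth factor of mast cells and basophils, was at 30.9 and 21.6 CPM in GFP + Plum and 11.2 and 3.99 CPM in GFP + GATA3. Tnfsf11, which encodes RANKL, was at 238 and 324 CPM in GFP + Plum and 160 and 151 CPM in GFP + GATA3. Both lists share members with the TH1 list, among them Ccl3, Ccl4, Lta and Tnf. They also hold leading lower genes, among them Ccl1 and Il2, and are not separate evidence. With 1 of the 4 libraries left out, between 5 and 9 of the 11 chemokines and between 9 and 13 of the 23 cytokines were lower, where 26.3% to 35.6% of all genes were. Without GFP + Plum replicate 1, 5 chemokines were lower and 3 higher, and 11 cytokines were lower and 9 higher, against 35.3% and 35.7% of all genes.

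Of 33 early response genes tested (the EGR, NR4A, AP-1 and NFAT families and their targets) 11 were lower and 6 higher without overlap, and the median was -0.01. Dusp5, a phosphatase of ERK, was at 34.4 and 26.3 CPM in GFP + Plum and 18.9 and 16.4 CPM in GFP + GATA3. Egr3, a zinc finger factor, was low, at 0.433 and 0.317 CPM in GFP + Plum and 2.11 and 1.33 CPM in GFP + GATA3. Members of this group were therefore separated in both directions and only Nr4a3 was among the 12 leading lower genes.
Cd44, a hyaluronan receptor and memory marker, was at 665 and 609 CPM in GFP + Plum and 423 and 396 CPM in GFP + GATA3 (log2 FC -0.64, SE 0.11, edgeR FDR = 0.266). Of 22 tested chemokine receptors and homing molecules 3 were higher and 4 lower, near the background shares. Of 27 cytokine receptors 6 were higher, among them Il1r1, Il6ra and Tgfbr2, and 7 lower. Il1r1, the signalling IL-1 receptor, was at 1.42 and 0.190 CPM in GFP + Plum and 5.55 and 7.36 CPM in GFP + GATA3.
In the T cell receptor complex and its proximal signalling 7 of 31 were higher and 8 lower. Cblb, a ubiquitin ligase that restrains T cell activation, was at 67.0 and 67.7 CPM in GFP + Plum and 44.7 and 43.9 CPM in GFP + GATA3, and Grap2, the adaptor GADS, at 19.7 and 15.3 CPM and 31.6 and 46.4 CPM. Cd5, a negative regulator of receptor signals, was at 124 and 132 CPM in GFP + Plum and 95.4 and 80.8 CPM in GFP + GATA3. Of 26 genes of the thymocyte and T lineage programme 9 were higher and 5 lower, with a median of 0.04.

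Interferon-stimulated genes were the list with the most members separated upwards. Of 34 tested, 15 were higher and 1 lower without overlap, and the median log2 FC was 0.36. Isg20, an antiviral exonuclease, was at 5.26 and 6.98 CPM in GFP + Plum and 11.7 and 10.3 CPM in GFP + GATA3. Irf1 was at 8.97 and 8.63 CPM in GFP + Plum and 13.7 and 14.6 CPM in GFP + GATA3. Most of these genes were low, and none was called by edgeR or reached an adjusted p of 0.05 by DESeq2. With 1 library left out between 16 and 24 of the 34 were higher, where 27.7% to 36.9% of all genes were. Without GFP + Plum replicate 1, 19 were higher and 9 lower, against 35.7% and 35.3% of all genes. Under scaling by library size only, 12 were higher and 1 lower.

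**Figure D3:**
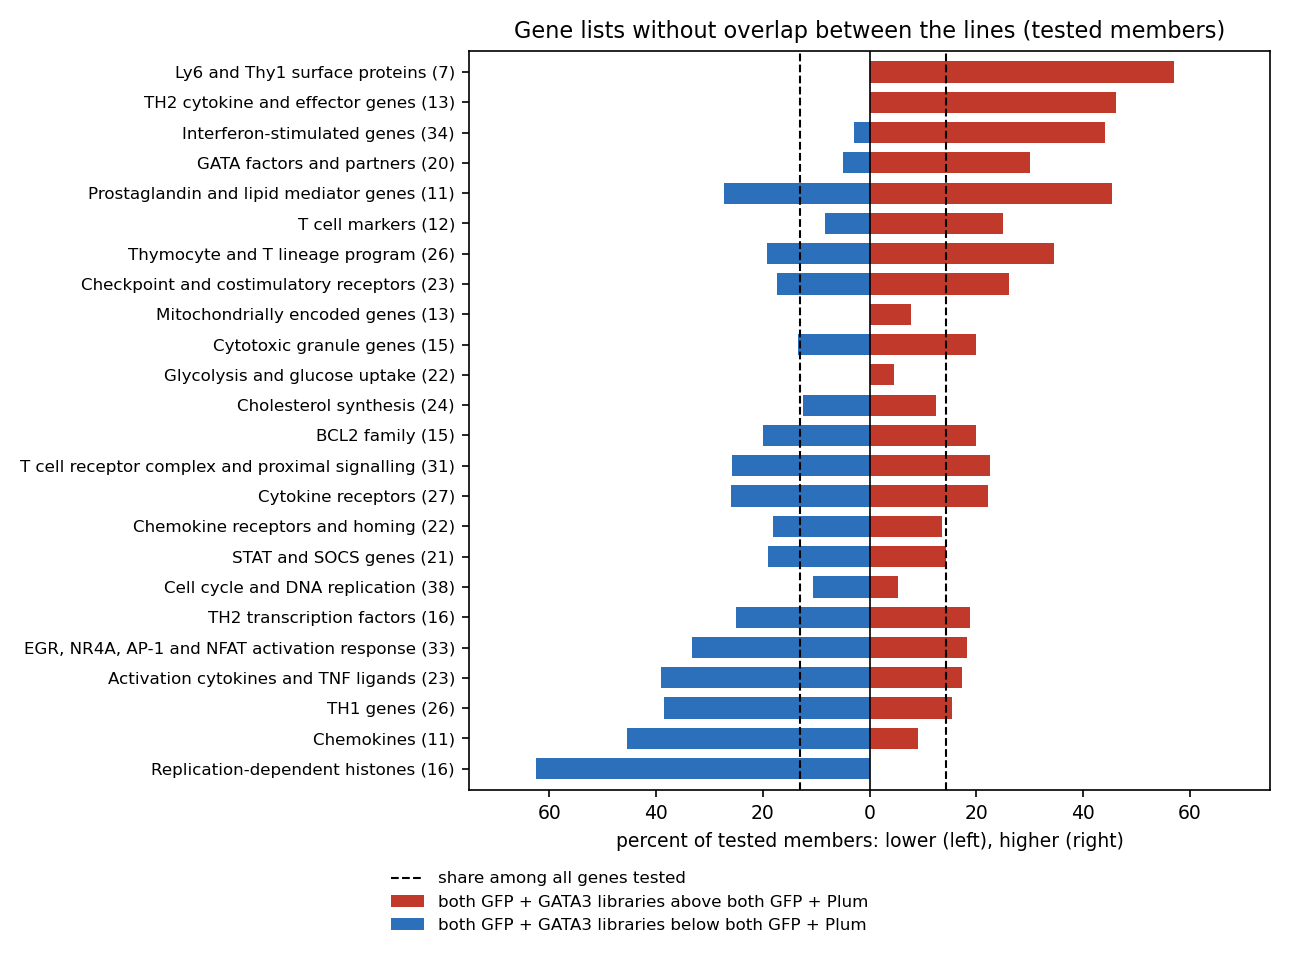
Bars give, for each gene list with at least 7 tested members (number in brackets), the percent of members with both GFP + GATA3 libraries above both GFP + Plum libraries (red, right) or below them (blue, left), and dashed lines give the same among all genes tested, 14.3% and 13.1%. Ly6 and Thy1 surface proteins, TH2 cytokine and effector genes, prostaglandin and lipid mediator genes and interferon-stimulated genes extend most to the right, and histones, chemokines, TH1 genes and activation cytokines most to the left.

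Other lists had few separated members or members separated in both directions. Of 38 cell cycle genes 2 were higher and 4 lower without overlap. The GFP + Plum libraries lay on either side of GFP + GATA3 in many of them. Without GFP + Plum replicate 1, 3 were higher and 28 lower, and without GFP + Plum replicate 2, 27 were higher and 4 lower, where between 35.3% and 36.9% of all genes were separated in each direction. Ccnd2, cyclin D2, was lower, at 408 and 486 CPM in GFP + Plum and 274 and 264 CPM in GFP + GATA3 (log2 FC -0.73, SE 0.15, edgeR FDR = 0.393). Cholesterol synthesis had 3 higher and 3 lower of 24, glycolysis 1 higher and 0 lower of 22, and STAT and SOCS genes 3 higher and 4 lower of 21. Single libraries decided the first 2 of these counts as well. Without GFP + GATA3 replicate 1, 4 cholesterol genes were higher and 13 lower, and without GFP + GATA3 replicate 2, 13 were higher and 3 lower. Glycolysis had 2 higher and 5 lower without GFP + GATA3 replicate 1 and 14 higher and 0 lower without GFP + GATA3 replicate 2. Among 15 BCL2 family genes 3 were higher and 3 lower. The pro-apoptotic Bcl2l11 (BIM) was at 12.4 and 15.0 CPM in GFP + Plum and 20.9 and 40.1 CPM in GFP + GATA3, and the anti-apoptotic Bcl2 at 85.5 and 106 CPM and 69.8 and 71.6 CPM. Of 15 cytotoxic granule genes 3 were higher, with Nkg7 near the floor among them, and 2 lower, and of 23 checkpoint and costimulatory receptors 6 and 4. The prostaglandin and lipid mediator list was above the background in both directions, with 5 higher and 3 lower of 11, but had 2 higher and 3 lower under scaling by library size only.
Replication-dependent histones, whose mRNAs lack a poly(A) tail, had the largest share of members separated downwards among the lists with at least 7 tested members. Of 16 tested 10 were lower and 0 higher without overlap, and their summed level was 26.5 and 31.3 CPM in GFP + Plum and 20.6 and 22.6 CPM in GFP + GATA3. Their part in the other results was not tested. Of 13 mitochondrially encoded genes 1 was higher and 0 lower, but without GFP + Plum replicate 1 the list had 1 higher and 9 lower, and without GFP + Plum replicate 2 it had 12 higher and 0 lower. Among markers of other cells, Ighm was at 180 to 233 CPM in all 4 libraries, and the mast cell protease Cpa3 was at 89.9 and 212 CPM in GFP + Plum and 71.1 and 84.0 CPM in GFP + GATA3.
Pdgfra was at 13.6 and 11.9 CPM in GFP + Plum and 24.7 and 22.1 CPM in GFP + GATA3.

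The leading genes were then read in the T-bet + GATA3 and T-bet + Plum libraries, which shared no library with the comparison above. The comparisons were not independent, since the p used for the choice rested on a spread estimated from all 8 libraries. Gata3 was at 204 and 165 CPM in T-bet + GATA3 and 25.8 and 34.9 CPM in T-bet + Plum. Of the 10 higher genes other than Gata3 and Vdr, 10 were higher there too, against 50.2% of all genes, 9 of them without overlap, against 14.2%, and 5 with an unadjusted p below 0.05, against 1.88%. Of all genes 5 were called by edgeR in the T-bet lines (0.0338%), and 1 of the 10 had an edgeR FDR of at most 0.05. Vdr had at most 2 counts in each of those 4 libraries and gave no direction. Mrgprx1 was at 0.124 and 0.0684 CPM in T-bet + Plum and 5.41 and 4.39 CPM in T-bet + GATA3 (edgeR FDR = 0.0395). Ly6a was at 31.2 and 42.9 CPM in T-bet + Plum and 123 and 97.2 CPM in T-bet + GATA3 (log2 FC 1.56, edgeR FDR = 0.0708). Both called genes were thus separated between lines with and without GATA3 in each background.
Of the 12 lower genes 11 were lower there, against 49.8% of all genes, 10 of them without overlap, against 16%, and 5 with an unadjusted p below 0.05, against 1.9%. By edgeR 0 of the 12 had an FDR of at most 0.05. Il17f was at 6.35 and 10.1 CPM in T-bet + Plum and 1.51 and 1.66 CPM in T-bet + GATA3, a log2 FC of -2.38. Nr4a3 was the exception, at 375 and 411 CPM in T-bet + Plum and 408 and 528 CPM in T-bet + GATA3. The log2 FC was smaller in size in the T-bet lines for 9 of the 10 higher genes, all but Gzma, and for 11 of the 12 lower genes, all but Il17f. The genes had been chosen for their values in the GFP lines, which favours larger values there. Choice by the smallest p of the shared fit also favoured genes with a small spread in the T-bet lines. The shares over all genes are therefore not matched to the leading genes, and the counts above give no separate test. Tested directly over all genes, the difference of the GATA3 effect between GFP and T-bet lines passed an FDR of 0.05 in 0 genes (0%) by edgeR (smallest FDR 0.212), and in 15 genes by DESeq2. By the unadjusted edgeR p, 381 genes (2.58%) lay below 0.05.

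**Figure D4:**
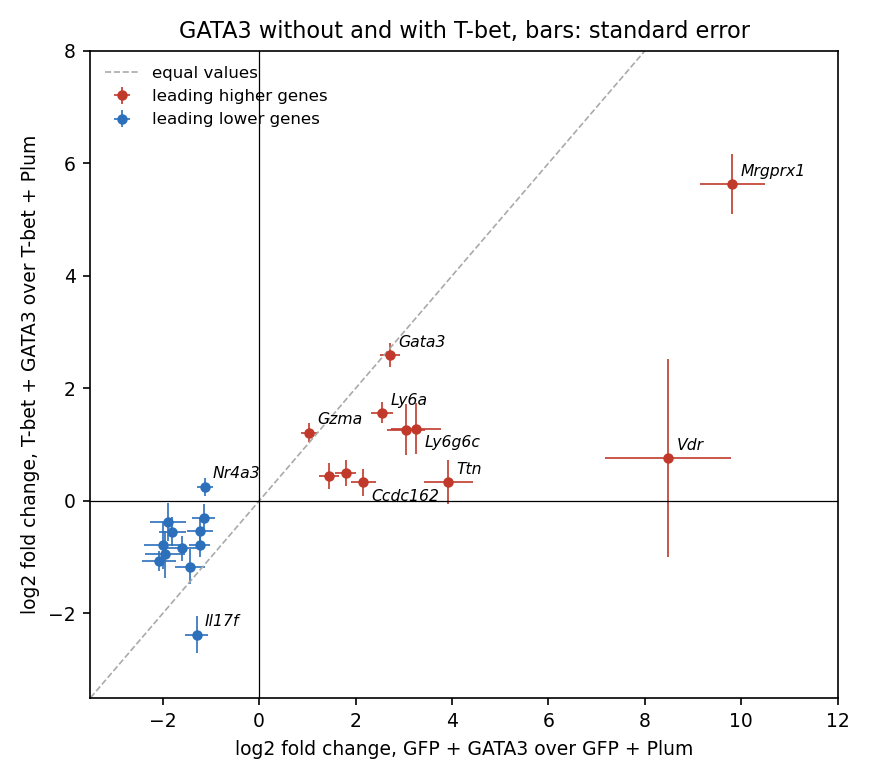
The log2 fold change of GFP + GATA3 over GFP + Plum (horizontal axis) is plotted against that of T-bet + GATA3 over T-bet + Plum (vertical axis) for 11 of the 12 leading higher genes (red) and the 12 leading lower genes (blue), with standard errors as bars and equal values on the dashed line. Gata3 lies near the line at 2.71 and 2.59, most other red points lie below it and most blue points above it, and Nr4a3 is the blue point above 0.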

How the data were processed

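RNA-seq of stimulated EL4 cells gave 8 libraries, of which the 2 of GFP + GATA3 and the 2 of GFP + Plum are the comparison here. Groups came from the sample titles. Libraries were made with a kit for small RNA after poly(A) selection according to the methods, to which the labels add ribosomal RNA depletion. Reads were trimmed with Trim Galore and quantified with kallisto. The authors deposited expected counts (kallisto's estimated counts), not normalized, and TPM for 136535 transcripts of GRCm38 in each library, without pooling. The methods name Gencode release M20, and the deposited values carry the label M18. The study describes 3 replicates, and 2 libraries per line were analysed here.

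The estimated counts of each gene's transcripts were added up and rounded. Counts were tested with edgeR 4.0.16 in R 4.3.3 (TMM, filterByExpr, quasi-likelihood, 1 group per line in 1 fit of 8 libraries, Benjamini-Hochberg over all genes tested). Positions came from Gencode M21 and promoter sequences from RefSeq, build GRCm38.p6. Of the 24 leading genes, those without an entry there were left out of the motif counts. SE was the size of the log2 FC over the square root of F. A floor of 3 counts per library, 0.187 to 0.296 CPM in these libraries, gave lower bounds and covers counting error only. Named were Gata3, Tbx21, the called genes, the 12 leading genes in each direction, up to 4 members per list with the smallest p, and Il4, Il5, Il13 and Ifng, together with genes called by DESeq2 alone. A few genes are not reported here. Further list members were named after their values were seen. The members and the 30 gene lists were chosen with earlier results of these data known. Alternatives were DESeq2 1.42.0, length offsets, other scalings, filters and features, a fit of 4 libraries, the replicate block and each library left out. The counts of list members under other scalings and without single libraries were added after seeing the data.

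No replicates were counted as 1 library, since the chi-square over its degrees of freedom was 30.4 for GFP + Plum and 9.95 for GFP + GATA3. On simulated counts for this comparison, with 14791 genes, edgeR found 71% of 100 genes changed by a log2 FC of 2 and 90% of 100 changed by 3. It made 4 false calls. These counts were drawn from mean levels over the 8 libraries with the spread that edgeR had fitted. Whether the same shares hold for the real counts was not tested. Deposited TPM were reported for Gata3 only, as the mean of each line, and were not tested. The p-values rest on the spread between harvests of the same line, pooled over all lines of the fit, and not on that between separately made lines.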

Additional observations from a re-analysis of the deposited data

How the results depend on the processing

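The number of genes called was 3, and 3 with length offsets in edgeR, under scaling by library size only, with DESeq2 size factors and by FDR alone. It was 29 by DESeq2, 27 by DESeq2 with length offsets, 138 without the filter on low counts, 2 with at least 10 counts in every library, 5 among protein-coding genes only and 0 in the fit of the 4 libraries. It ranged from 0 to 5 when single libraries were dropped. The log2 FC of Gata3 ranged from 2.51 to 2.94 when single libraries were dropped and was 2.71 in the fit of the 4 libraries, where its FDR was 0.173. With length offsets it was 3.36 by both tools. The number of genes whose GATA3 effect differed between GFP and T-bet lines was 15 by DESeq2, 14 by DESeq2 with length offsets and 145 without the filter, and from 0 to 3 when single libraries were dropped. Leaving out single libraries put the TH1 median between -0.409 and -0.0735 and the TH2 median between 0.214 and 1.45, and with at least 10 counts in every library the TH1 median was -0.553. The log2 FC changed sign for Ighm without the filter (-0.00693) and, over single libraries left out, for Tbx21 (-0.746 to 0.258), Mrgpre (-0.300 to 1.75), Rab27a (-0.647 to 0.157), Hk1 (-0.0251 to 0.787), mt-Nd4 (-0.0406 to 0.552), mt-Co2 (-0.0118 to 0.370), mt-Nd2 (-0.0459 to 0.475), Blk (-1.25 to 0.674), Ighm (-0.168 to 0.211), Cd68 (-0.375 to 0.774), Itgax (-0.858 to 1.27), Pecam1 (-0.837 to 0.515) and Ifng (-0.380 to 1.48). None of these genes was called. The number of genes without overlap between the lines was 7123 without the filter and 4057 with it. The cause of these differences was not tested.

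The replicate numbers do not pair the libraries by their labels, and deviations of same-numbered libraries correlated with r = 0.249 for these lines and between -0.0455 and 0.302 over all pairs of lines. With the replicate block 4 genes were called, 3 of them those of the fit without it.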

Other observations

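Of the 29 genes called by DESeq2, 26 were not called by edgeR, 17 of them higher and 9 lower in GFP + GATA3. Slc7a11, the cystine transporter, was at 13.99 and 18.1 CPM in GFP + Plum and 51.5 and 114 CPM in GFP + GATA3 (DESeq2 adjusted p = 3.0e-07, edgeR FDR = 0.256). Kcnma1, a calcium-activated potassium channel, was at 2.85 and 0.761 CPM in GFP + Plum and 14.5 and 17.8 CPM in GFP + GATA3. Thbs2, thrombospondin 2, was at 20.9 and 9.39 CPM in GFP + Plum and 50.2 and 57.8 CPM in GFP + GATA3. Stom, the membrane protein stomatin, was at 3.65 and 2.85 CPM in GFP + Plum and 9.95 and 15.2 CPM in GFP + GATA3. Arg1, arginase 1, was at 1.73 and 1.90 CPM in GFP + Plum and 6.03 and 8.81 CPM in GFP + GATA3. Csrnp3, a nuclear protein, was at 10.3 and 6.53 CPM in GFP + Plum and 23.2 and 25.2 CPM in GFP + GATA3. In the other direction Pde2a, a cyclic nucleotide phosphodiesterase, was at 2.91 and 2.22 CPM in GFP + Plum and 0.0957 and 0.190 CPM in GFP + GATA3. Its counts in GFP + GATA3 were 1 and 3, at the floor, and only 36.2% of its 31-base words were its own. The lines did not overlap in any of these genes, and their edgeR FDRs were all above 0.05. Also called by DESeq2 alone were 1 lincRNA with a clone name and RP24-274B10.1, RP23-400P11.2, RP23-186O3.13 and RP23-10G21.3, which were higher, and RP24-316K19.1, RP23-24I10.1 and RP23-470I4.4, which were lower. None of the 31-base words of these pseudogenes was unique (0%), nor were those of RP24-274B10.1 and RP23-10G21.3. RP24-316K19.1 and RP23-24I10.1 had identical counts in every library, so that their calls rest on 1 set of ambiguous reads. The others are described with the leading genes and the TH1 list.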
